A study of Mus musculus with 37 samples.

Results

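Cadherins are calcium-dependent adhesion proteins of the cell surface, and 90 genes of this family were described here across RNA libraries of mouse cerebellum. They are the genes whose symbol is Cdh followed by a number or begins with Pcdh, and whose mean over the 8 libraries was at least 0.5 FPKM, a read density scaled to the length of the transcript and to the size of the library. The names fitted 95 of the 29955 genes in the deposited table, and 5 of those fell below the level, against 16474 genes of all kinds at or above it. Just above it were Cdh29 with a mean of 0.513 FPKM and Cdh3 with 0.578 FPKM, and just below it were Pcdh12 with 0.284 FPKM and Pcdhb1 with 0.0835 FPKM. The members fall into 18 classical cadherins, 3 other Cdh genes, 11 non-clustered protocadherins, and 15, 21 and 22 genes of the protocadherin clusters alpha (Pcdha), beta (Pcdhb) and gamma (Pcdhg).

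Classical cadherins bind the same or a related cadherin on the neighbouring cell and hold the actin skeleton through catenins. In the brain they sort neurons into layers and nuclei and help to match synaptic partners. Most of the clustered protocadherins are stochastically chosen, cell by cell, from arrays of alternative promoters. Neurons use the resulting combination to tell their own processes from those of other cells. Gamma protocadherins are known for the self-avoidance of Purkinje cell dendrites and for the survival of interneurons. Non-clustered protocadherins are transcribed from ordinary single genes and take part in axon growth and in adhesion.

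The mice were of strain C57BL/6. Mll4, the gene removed, is a histone methyltransferase that marks lysine 4 of H3 at enhancers. The controls carried floxed alleles and are labelled Mll4 f/f or Mll4 WT, here WT. The mutants are labelled Mll4 BSKO or Mll4 KO, here KO. BSKO is not spelled out in the labels and was read here as a deletion in the brain. The Cre line that drives it, the sex of the mice and any pooling of animals are not given by the labels. All libraries are labelled cerebellum, with 3 WT and 3 KO at the age of 1 month and a single WT and a single KO library at 4 months. Separate animals are not named for the replicates, so a p-value here sets a difference against the spread of these libraries alone, and that spread may be technical. The question addressed is how the RNA of these genes differs between genotypes and between ages.

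Some libraries stood apart or went against their labels. The targeted gene appears under the older symbol Mll2, which the annotation gives for both Kmt2d and Kmt2b and which was read here as Kmt2d. It had 18.2, 19.9 and 22.3 FPKM in WT replicates 1 to 3, and 12.7, 13.6 and 23.5 FPKM in the libraries labelled KO replicates 1 to 3, so the third lay above every WT library. At 4 months it had 46.6 FPKM in WT and 16.6 FPKM in KO. Libraries were also compared by their median absolute log2 difference over 7315 genes of at least 10 FPKM. The library labelled KO replicate 3 lay 0.16, 0.15 and 0.20 from WT replicates 1 to 3, and 0.25 from each of the other KO libraries. WT replicate 3 also stood apart, at 0.19 and 0.18 from WT replicates 1 and 2. WT replicates 1 and 2 lay 0.077 apart, as did KO replicates 1 and 2. The library labelled KO at 4 months went against its tissue label. Its 5 forebrain markers, among them Tbr1 and Neurod6, summed to 121 FPKM against 1.92 to 3.29 FPKM in the other 7 libraries, and 3 of 10 granule neuron markers (Gabra6, Fat2 and Cbln3, at 0.118 to 0.236 FPKM) and 1 of 9 Purkinje cell markers (Pcp2, at 0.544 FPKM) were under 1 FPKM. None of these markers was under 1 FPKM in WT at 4 months. Other genes of those lists stayed high, so that the lists summed to 292 and 401 FPKM there, against 1024 and 1458 FPKM in WT at 4 months. Slc17a7, at 252 FPKM against 126 FPKM in WT, made up most of the granule neuron sum, and Pcp4 and Itpr1, at 192 and 125 FPKM, most of the Purkinje cell sum; all 3 are also expressed in the forebrain.

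Marker sums of cell types also differed between the genotype groups at 1 month. Granule neuron markers summed to between 1607 and 1669 FPKM in WT, to 330, 325 and 1075 FPKM in KO replicates 1 to 3, with 10 of 10 markers lower in KO. Purkinje cell markers summed to between 2164 and 2703 FPKM in WT and to 679, 603 and 1596 FPKM in KO, with 9 of 9 lower. Brainstem markers summed to 16.1, 17.1 and 55.9 FPKM in WT and to 165, 168 and 98.3 FPKM in KO, with 11 of 11 tested higher. WT replicate 3 was thus apart from the other WT libraries. At 4 months the brainstem sum was 80.6 FPKM in WT and 3.63 FPKM in KO. The cause of this spread among WT libraries was not tested. Brainstem markers listed at 0 in some libraries included Slc18a3, Hoxa5, Hoxb2, Hoxb3 and Isl1. Oligodendrocyte markers summed to between 3140 and 6205 FPKM in WT and between 4237 and 7159 FPKM in KO, so those groups overlapped. Microglia markers summed to between 52.5 and 67.9 FPKM in WT and between 136 and 174 FPKM in KO, with 7 of 7 higher. Markers of meninges and fibroblasts summed to between 58.7 and 65.7 FPKM in WT and between 96.3 and 105 FPKM in KO, with 6 of 7 higher. The part of these cell types in the results below was not tested, and in bulk tissue fewer cells of a type and less RNA per cell cannot be told apart.

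Levels over the members ran from the threshold to 87.9 FPKM. The highest mean over the 8 libraries was that of Pcdh9, a non-clustered protocadherin, followed by the type II classical cadherin Cdh18 with 48.0 FPKM and the gamma gene Pcdhgc3 with 45.1 FPKM. Next came Pcdh1 with 33.0, Pcdh7 with 32, Cdh13 with 27.3, Pcdh10 with 26.2, Cdh8 with 25.2 and Cdh2 with 23.0 FPKM. Over all 8 libraries, which pool genotypes and ages, neighbours in this order overlapped in their range. Within the 1-month groups Pcdh9 and Cdh18 did not, at 83.4 to 109 FPKM against 58.0 to 66.0 FPKM in WT and at 77.6 to 103 FPKM against 31.2 to 49.5 FPKM in KO. Cdh2 is N-cadherin, the classical cadherin of neural tissue, and Cdh13 is T-cadherin, which has a lipid anchor in place of the cytoplasmic tail. The C-type genes, at the end of the alpha and gamma arrays, held large shares of their clusters. Pcdhac2 held 28.8% to 39.3% of the summed alpha FPKM in a library and Pcdhgc3 held 13.8% to 28.6% of the summed gamma FPKM.

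In KO against WT at 1 month, no member passed an adjusted p of 0.05 in the limma fit across all 16474 genes, in which 0.0243% of genes (4) were called. At an unadjusted limma p under 0.05 there were 35 members, 13 higher and 22 lower in KO, which is 38.9% of them against 30.1% of all genes (14.2% higher and 16% lower). At an adjusted limma p under 0.10 there were 11 members, or 12.2%, against 13.3% of all genes, with 6 higher (7.13% of all genes) and 5 lower (6.14% of all genes). The groups did not overlap in 32 members, or 35.6%, against 34.7% of all genes, and that too is a share near the background. By direction, 7 were higher and 25 lower, against 15.5% and 19.3% of all genes. The direction was less even. The fold change was negative in 67 of 90 members, 74.4%, against 53.9% of all genes, and positive in 23, 25.6%, against 46.1%. The median log2 fold change was -0.23, against -0.03 over all genes.

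Direction followed the class of gene. The non-clustered protocadherins had a median log2 fold change of 0.58, with 8 of 11 higher in KO. The gamma cluster had a median of -0.48 with 21 of 22 lower, the beta cluster -0.25 with 20 of 21 lower, and the alpha cluster -0.21 with 14 of 15 lower. Classical cadherins were divided, with 10 higher and 8 lower and a median of 0.13. Among them the 5 type I genes had a median of -0.21 and the 13 type II genes 0.35. Variants of the gamma cluster share constant exons, as do those of alpha, so the cluster counts are not of independent genes. The libraries of KO did not share these shifts alike. Gamma genes lay below their WT mean in 21, 21 and 13 of 22 cases in KO replicates 1 to 3. The median deviation of the gamma genes from the WT mean at 1 month was -0.73, -0.72 and -0.01 in KO replicates 1 to 3, the last within the WT range of -0.13 to 0.10. For the non-clustered genes it was 0.85 and 0.78 and then 0.10, beside a WT range of -0.06 to 0.11.

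**Figure D1:**
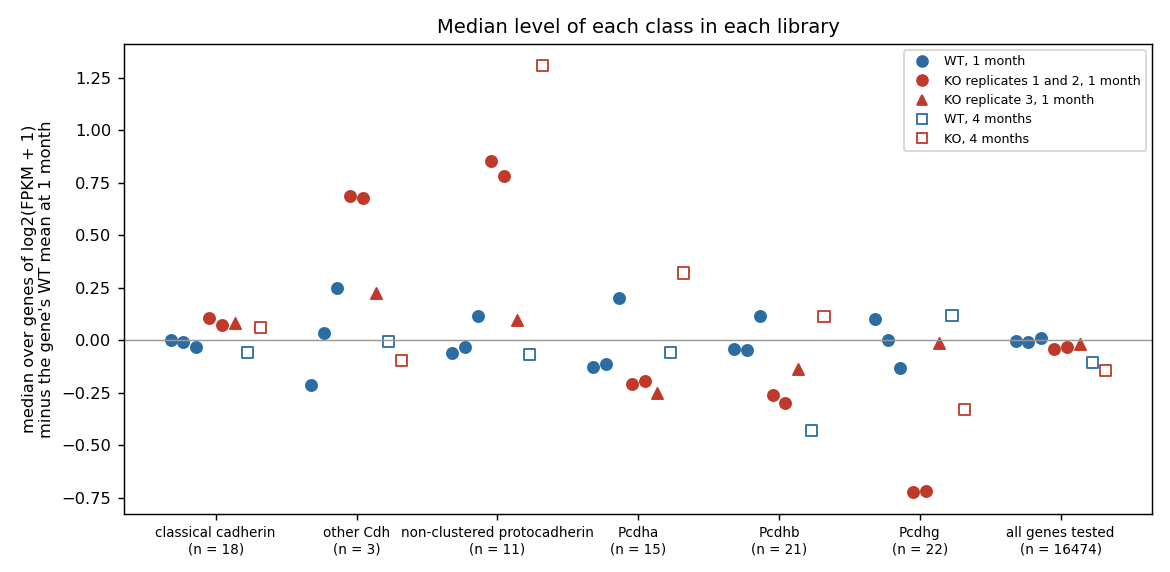
Median over the genes of each class of the deviation from the WT mean at 1 month, on the log2(FPKM + 1) scale, with 1 point per library. Gamma genes lie at -0.73 and -0.72 in KO replicates 1 and 2 but at -0.01 in KO replicate 3, and non-clustered protocadherins at 0.85, 0.78 and 0.10.

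With the library labelled KO replicate 3 left out, 42 members passed an adjusted limma p of 0.05, 14 higher and 28 lower, which is 46.7% against 30.9% of all genes (13.5% higher and 17.4% lower). Of the 28 lower, 18 were gamma genes, 3 beta genes and 6 classical cadherins, and of the 14 higher, 7 were non-clustered and 5 classical. No alpha gene was called. Each library was left out in turn, and the count without this library describes 2 KO libraries. Those 2 lay only 0.077 apart by the median absolute log2 difference, as did WT replicates 1 and 2. The spread used for the 42 may therefore be technical and too small for separate animals.

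The classical cadherins with the largest differences at 1 month included Cdh15, or M-cadherin, a type I cadherin known from muscle precursors and from cerebellar granule neurons. Its level was 18.9, 19 and 12.3 FPKM in the WT libraries and 1.86, 2.71 and 11 FPKM in the KO libraries. Every KO library lay below every WT library, by a wide margin in KO replicates 1 and 2 and a narrow margin in the third. The log2 fold change was -1.79 (SE 0.52, limma adjusted p = 0.0976), and -2.42 without the library labelled KO replicate 3. Among type II cadherins, which pattern neuronal groups and circuits, Cdh18 had 66.0, 63.8 and 58.0 FPKM in WT and 33.9, 31.2 and 49.5 FPKM in KO. Its groups did not overlap and its log2 fold change was -0.72 (SE 0.19, limma adjusted p = 0.0828).

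Cdh8, a type II cadherin, had 29.9, 28.7 and 37.0 FPKM in WT and 16.5, 19 and 23.6 FPKM in KO. All KO libraries were below all WT libraries, with a log2 fold change of -0.67 (SE 0.17, limma adjusted p = 0.0816). Cdh7 had 27.3, 23.8 and 22.4 FPKM in WT and 13.3, 15 and 20.9 FPKM in KO, and Cdh22 had 14.0, 16.4 and 19 FPKM in WT and 10.5, 11.9 and 12.5 FPKM in KO. Neither overlapped, with log2 fold changes of -0.57 and -0.46, and neither reached an adjusted limma p of 0.10 (0.107 and 0.101). These 5 were the classical cadherins whose KO libraries all lay below WT, and in each case the library labelled KO replicate 3 had the highest KO value. Granule neuron and Purkinje cell markers, at 1075 and 1596 FPKM in sum, were also highest among KO libraries in that one. Brainstem markers, at 98.3 FPKM, were lowest there. A link of these cadherins to any of the cell types was not tested.

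Other type II cadherins were higher in KO. Cdh6 had 3.46, 3.16 and 4.07 FPKM in WT and 7.36, 6.69 and 5.24 FPKM in KO, with a log2 fold change of 0.70 (SE 0.15, limma adjusted p = 0.0684). Cdh11, also known from bone and connective tissue, had 8.91, 8.79 and 8.51 FPKM in WT and 15.1, 14.5 and 11.3 FPKM in KO, with a log2 fold change of 0.58 (SE 0.13, limma adjusted p = 0.0755). Cdh6 and Cdh11 both had groups that did not overlap, with KO replicate 3 nearest to WT. In sum, meninges and fibroblast markers were also higher in every KO library at 1 month than in any WT library of that age. Their sum was 96.3, 98.9 and 105 FPKM in KO replicates 1 to 3, highest in the third, where Cdh11 was lowest. At 4 months that sum was 67.8 FPKM in WT and 45.8 FPKM in KO, while Cdh11 had 6.82 and 30.8 FPKM. A link between them was not tested. Cdh9 and Cdh10 were higher by 0.56 and 0.53 on the log2 scale, but the third KO library overlapped WT in both. Cdh19, a gene of glia, was higher by 0.62 with overlapping groups, and its WT libraries spread from 4.23 to 8.95 FPKM. The other classical cadherins, Cdh1, Cdh3, Cdh4, Cdh12, Cdh20 and Cdh24, had log2 fold changes between -0.29 and 0.47 with overlapping groups. Cdh2 had the smallest, with 21.6 to 24.1 FPKM in WT and 20.7 to 23.5 FPKM in KO and a log2 fold change of -0.01 (SE 0.11). Cdh5, or VE-cadherin, the cadherin of endothelium, was at 3.84 to 4.55 FPKM in WT and 4.42 to 5.27 FPKM in KO, while endothelial markers summed to 64.7 to 67.5 FPKM in WT and 65.0 to 79.7 FPKM in KO.

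The other Cdh genes had no group without overlap. Cdh23, which with Pcdh15 forms the tip links of hair cells in the inner ear, had a log2 fold change of 0.73 (SE 0.27), and Cdh13 of 0.53 (SE 0.20). Cdh29 stayed below 1 FPKM in every library. The annotation lists it as an older name of Cdhr4, but the deposited table has a separate Cdhr4 row with other values, at 0.194 to 0.347 FPKM in WT and 0.288 to 1.32 FPKM in KO at 1 month, so its identity is uncertain.

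Of the 11 non-clustered protocadherins, 9 lay above their WT mean in KO replicates 1 and 2, and Pcdh1 and Pcdh20 lay below it in both. Pcdh11x, an X-linked protocadherin, had the largest positive log2 fold change of any member, 1.13 (SE 0.30, limma adjusted p = 0.0871). Its level was 2.99, 2.67 and 4.22 FPKM in WT and 10.7, 10.8 and 4.80 FPKM in KO, so the third KO library lay just above the highest WT library. Pcdh7 had 19.5, 19.6 and 24.7 FPKM in WT and 45.7, 45 and 25.2 FPKM in KO, and the gap between the groups again rested on a narrow margin in the third. Pcdh10, known for axon growth, had 16.5, 16.6 and 16.5 FPKM in WT and 33.7, 30.5 and 20.0 FPKM in KO. Here the WT libraries were nearly equal and all KO libraries were above them, with a log2 fold change of 0.70 (SE 0.20, limma adjusted p = 0.0919).

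Pcdh15 had 2.84, 2.92 and 3.37 FPKM in WT and 6.89, 6.38 and 4.51 FPKM in KO, with a log2 fold change of 0.76 (SE 0.16, limma adjusted p = 0.0683). Pcdh19, the X-linked gene of a human epilepsy, had 3.05, 3.23 and 3.41 FPKM in WT and 7.15, 7.48 and 3.96 FPKM in KO. In both, every KO library was above every WT library and the third KO library was the lowest. Pcdh17, Pcdh18 and Pcdh8 were higher on average, by 0.58, 0.44 and 0.35 on the log2 scale, with overlapping groups. Pcdh1, Pcdh20 and Pcdh9 were the 3 of the class with a negative sign, and Pcdh9, at 83.4 to 109 FPKM in WT and 77.6 to 103 FPKM in KO, overlapped fully.

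**Figure D2:**
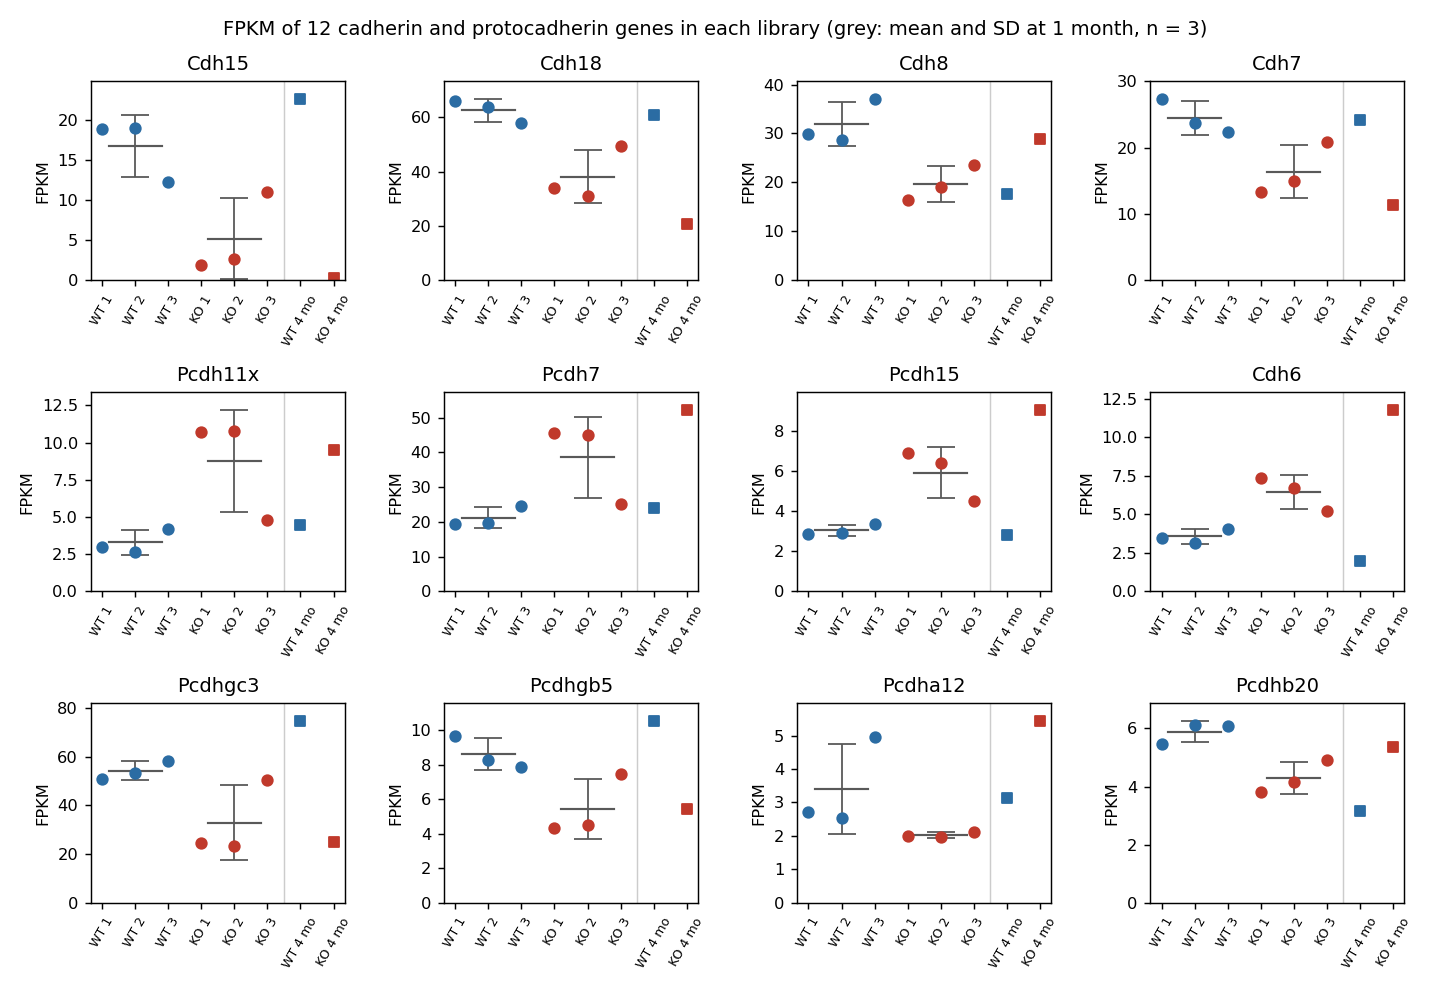
FPKM in each of the 8 libraries for 12 members, with WT in blue, KO in red, 4 months as squares, and the mean and SD of each group at 1 month in grey (n = 3). In most panels KO replicates 1 and 2 lie apart from WT and KO replicate 3 lies between, as for Cdh15 with 1.86, 2.71 and 11 FPKM in the KO libraries.

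Promoter sequence is shown for the members with the lowest and the highest fold changes whose groups did not overlap and that had an entry in the RefSeq promoter table of GRCm38.p6, which runs from 250 bases before to 50 bases after each start. Of the 90 members, 22 matched an entry, 11 of them classical, 9 non-clustered and 2 other Cdh genes. The motif searched was CANNTG, the E-box read by basic helix-loop-helix factors such as the granule neuron factor Neurod1, which is the same on both strands. It was in 14 of 22 member promoters, 63.6%, against 72.1% of the 27025 promoters in the table. It was in 9 of 11 classical and 3 of 9 non-clustered promoters, shares of 81.8% and 33.3%. The sequences are written 5′ to 3′ in lower case with E-boxes in capitals, and the first and second of them belong to genes lower in KO. A match is only a match of letters in this window.
Cdh15, chr8:122848124-122848423, + strand: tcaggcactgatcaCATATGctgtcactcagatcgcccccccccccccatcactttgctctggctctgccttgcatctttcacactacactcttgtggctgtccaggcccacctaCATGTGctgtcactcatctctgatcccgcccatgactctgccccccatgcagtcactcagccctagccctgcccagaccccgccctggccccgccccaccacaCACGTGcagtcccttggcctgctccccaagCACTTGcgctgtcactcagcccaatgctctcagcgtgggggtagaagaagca
Cdh18, chr15:23036213-23036512, + strand: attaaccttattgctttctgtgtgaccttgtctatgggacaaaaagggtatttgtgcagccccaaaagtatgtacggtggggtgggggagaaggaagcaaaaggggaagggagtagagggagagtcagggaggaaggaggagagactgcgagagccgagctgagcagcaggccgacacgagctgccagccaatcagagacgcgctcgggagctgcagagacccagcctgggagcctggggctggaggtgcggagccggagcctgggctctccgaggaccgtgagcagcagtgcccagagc
Pcdh7, chr5:57717831-57718130, + strand: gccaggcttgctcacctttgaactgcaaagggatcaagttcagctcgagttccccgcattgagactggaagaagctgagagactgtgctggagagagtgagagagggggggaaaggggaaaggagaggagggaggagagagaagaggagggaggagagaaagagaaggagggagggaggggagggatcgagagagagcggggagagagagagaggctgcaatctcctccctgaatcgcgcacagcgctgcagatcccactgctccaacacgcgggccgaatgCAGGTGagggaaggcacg
Pcdh15, chr10:73821617-73821916, + strand: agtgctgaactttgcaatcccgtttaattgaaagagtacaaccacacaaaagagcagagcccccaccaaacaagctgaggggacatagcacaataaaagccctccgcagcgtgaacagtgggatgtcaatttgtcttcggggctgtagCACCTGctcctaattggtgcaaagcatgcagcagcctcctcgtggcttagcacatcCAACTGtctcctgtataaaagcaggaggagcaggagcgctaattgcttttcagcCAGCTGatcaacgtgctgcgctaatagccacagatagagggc
The Cdh15 promoter held 4 matches and that of Cdh18 held 0, so the genes lower in KO differed in this respect. Pcdh7 held 1 and Pcdh15 held 3.

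The gamma cluster had the lowest median fold change of the classes at 1 month, though no gamma gene reached an adjusted limma p of 0.10. Its summed level was 227, 218 and 204 FPKM in WT and 116, 113 and 213 FPKM in KO, so the third KO library lay inside the WT range. Pcdhgc3, the most abundant gamma gene, had 50.7, 53.5 and 58.4 FPKM in WT and 24.5, 23.4 and 50.6 FPKM in KO. The groups were separated only by 50.6 against 50.7 FPKM, and the log2 fold change was -0.80 (SE 0.29, limma adjusted p = 0.132). Pcdhgb5 had 9.67, 8.29 and 7.86 FPKM in WT and 4.32, 4.52 and 7.43 FPKM in KO, and was 1 of 4 gamma genes whose groups did not overlap, with Pcdhga1, Pcdhga7 and Pcdhgc3. All 4 were lower in KO, and 4 of 22 is a share near the 19.3% of all genes that were lower without overlap. Its log2 fold change was -0.61 (SE 0.20, limma adjusted p = 0.112). Over the cluster the log2 fold change ran from -0.80 to 0.19. Medians were -0.44 for the 12 gamma A genes, -0.62 for the 7 gamma B genes and -0.33 for the 3 C-type genes. Pcdhga10, listed at 0 in 3 libraries, was the member of the cluster with a positive sign, and Pcdhgb8 is annotated as a transcribed pseudogene.

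**Figure D3:**
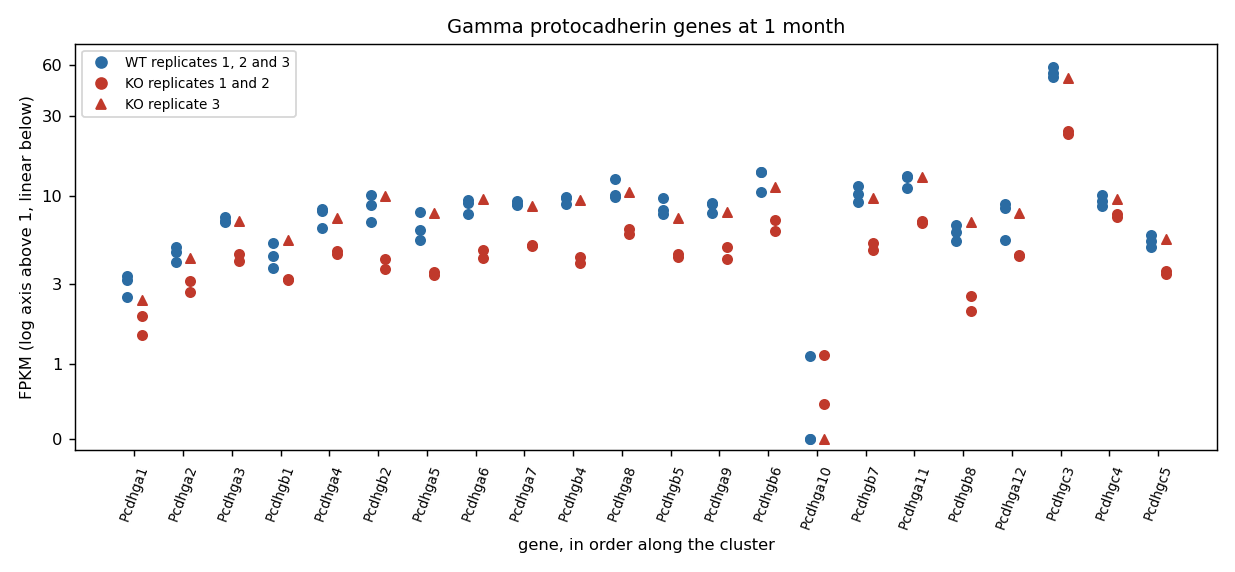
FPKM of each gamma protocadherin gene at 1 month, in the order of the cluster, on an axis that is logarithmic above 1 FPKM and linear below it. KO replicates 1 and 2 lie below the WT libraries for most genes and KO replicate 3 lies among them, and Pcdhgc3 stands highest at 23.4 to 58.4 FPKM.

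The gamma genes share constant exons, as the alpha genes do, so fragments could be split among variants in ways the labels do not give, and single variants are less certain than the sums. Pcdha4 and the row Pcdha4-g went in opposite directions between libraries, and the cause was not tested. Pcdha4 was listed at 0 in WT replicate 1 while Pcdha4-g had 2.63 FPKM there, and in WT replicate 2 they had 2.31 and 0.202 FPKM. Their sum was steadier, at 2.28 to 2.66 FPKM over the 6 libraries at 1 month.

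Beta genes, each a single exon with no shared part, lay below their WT mean in 19, 19 and 15 of 21 cases in KO replicates 1 to 3. The median deviation from the WT mean was -0.26, -0.30 and -0.14 in KO replicates 1 to 3, against -0.04, -0.05 and 0.12 in WT. In 9 of 21 beta genes the groups did not overlap, all lower in KO, beside 19.3% of all genes, and the log2 fold changes ran from -0.42 to 0.11. Pcdhb4 had 1.93, 1.78 and 2.44 FPKM in WT and 1.32, 1.15 and 1.32 FPKM in KO, with a log2 fold change of -0.42 (SE 0.12, limma adjusted p = 0.0914). Pcdhb17 and Pcdhb16, the most abundant of the cluster with means of 7.6 and 6.60 FPKM, had log2 fold changes of -0.26 and -0.31.

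Alpha genes lay below their WT mean in 12, 12 and 14 of 15 cases in KO replicates 1 to 3, with a median deviation of -0.21, -0.19 and -0.25 in KO replicates 1 to 3, while WT spread from -0.13 to 0.20. The groups did not overlap in 7 of 15, all lower in KO, beside 19.3% of all genes, and the log2 fold changes ran from -0.50 to 0.33. Pcdha9 had 3.50, 3.09 and 3.71 FPKM in WT and 2.46, 2.49 and 2.21 FPKM in KO, with a log2 fold change of -0.39 (SE 0.11, limma adjusted p = 0.0898). Pcdha12 had the largest negative value of the cluster, -0.50, with 2.70, 2.53 and 4.95 FPKM in WT and 1.99, 1.95 and 2.13 FPKM in KO, so WT replicate 3 carried much of it. Pcdhac2, the C-type gene with the highest level of the cluster, had 13.7 to 16.0 FPKM in WT and 12.4 to 14.7 FPKM in KO, which overlapped.

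**Figure D4:**
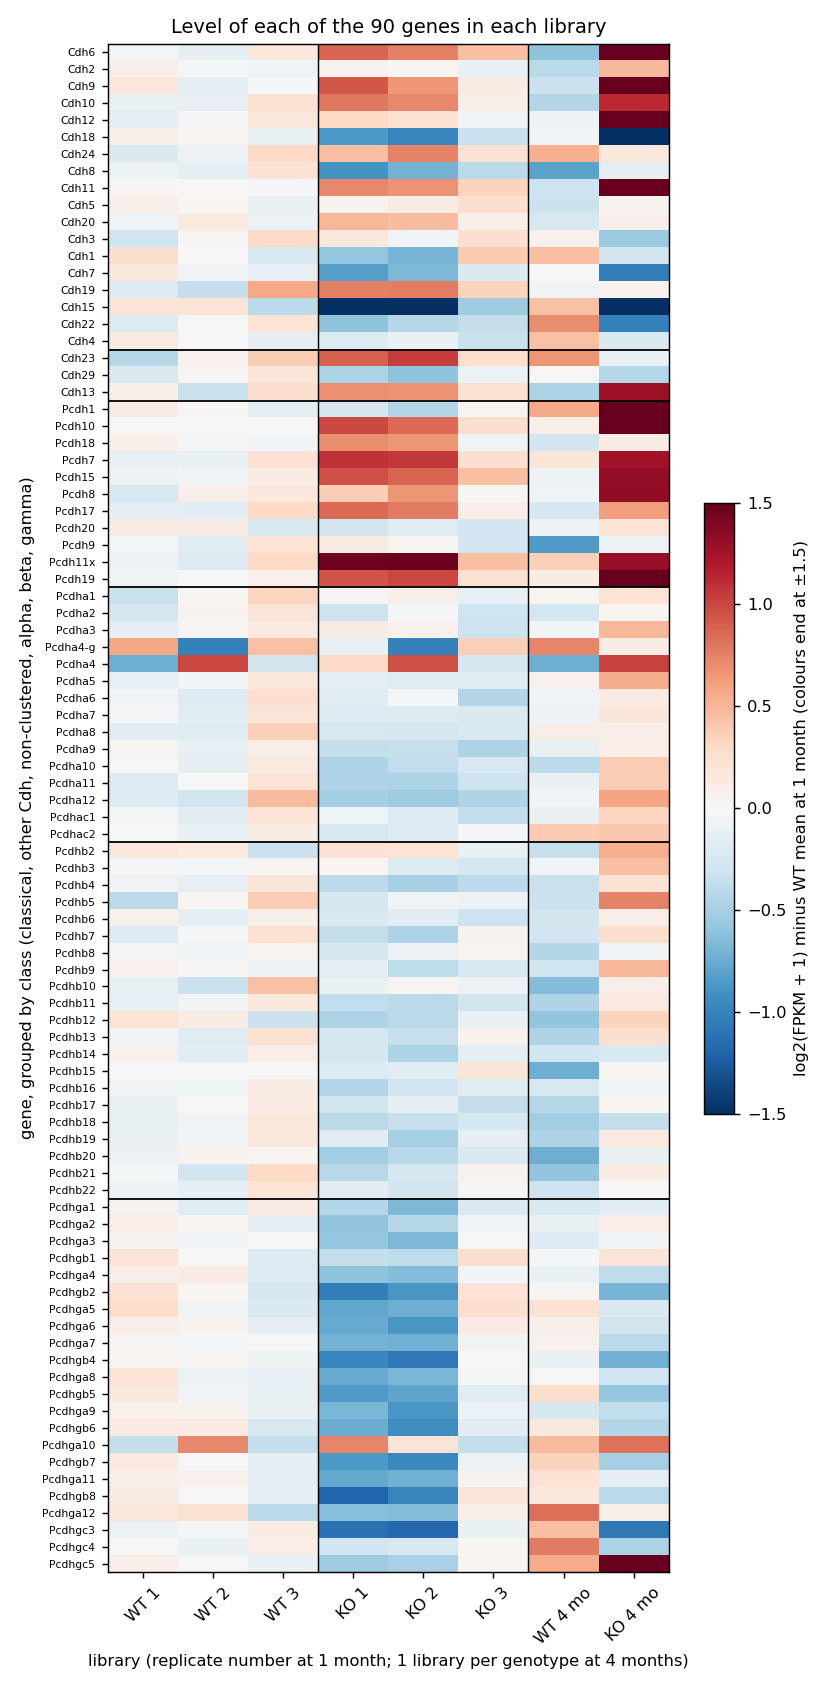
Deviation of each member from its WT mean at 1 month, log2(FPKM + 1), in each library, with genes grouped by class and colours ending at 1.5 in either direction. Most gamma genes are low in KO replicates 1 and 2 and near 0 in KO replicate 3, and most non-clustered genes are high in the same KO libraries.

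Partners of the cadherins were also read from this fit, and 0 genes of any of these lists passed an adjusted limma p of 0.05. Of 12 catenins and linkers to actin, 4 were higher and 8 lower, with a median log2 fold change of -0.12. Ctnna3, an alpha catenin, was the member below an adjusted p of 0.10 (0.53, limma adjusted p = 0.0826). Of 14 tested members of the wider cadherin superfamily, 9 were higher and 5 lower, with a median of 0.05. At an adjusted limma p under 0.10, 3 were higher and 1 lower, beside 7.13% and 6.14% of all genes. Ret was higher by 0.94 (limma adjusted p = 0.0645), the atypical cadherin Fat3 by 0.68 (limma adjusted p = 0.098) and Clstn2 by 0.35 (limma adjusted p = 0.0995). Fat1 had a log2 fold change of -0.99 (limma adjusted p = 0.0924). Fat2, which is also a marker of granule neurons, had a log2 fold change of -2.26 (limma adjusted p = 0.102).

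Of 9 tested regulators of the protocadherin clusters, a group with Ctcf and the cohesin genes that shape promoter choice, 8 were lower and 1 higher, with a median of -0.30. Smc3, a cohesin subunit, had a log2 fold change of -0.53 (limma adjusted p = 0.0885). Of 11 signalling partners and proteases, 5 were higher and 6 lower, with a median of 0.00. Wasf1, of the complex that drives actin branching, had a log2 fold change of -0.59 (limma adjusted p = 0.0984).

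At 4 months the comparison was of 1 library per genotype and has no replicate check. It was also a comparison with the library labelled KO at 4 months, whose forebrain markers were high and in which Gabra6, Fat2, Cbln3 and Pcp2 were near 0. A difference of at least 1 in log2(FPKM + 1) was found in 20 members, 22.2%, against 19.3% of all genes, with 14 higher (8.75% of all genes) and 6 lower (10.5% of all genes). Cdh15 had 22.6 FPKM in WT and 0.234 FPKM in KO, a difference of -4.26. Cdh22 was next at -1.72 with 27.2 and 7.58 FPKM, and Pcdhgc3 at -1.53 with 74.5 and 25.1 FPKM. On the other side stood Cdh9 (0.749 and 6.93 FPKM), Cdh6 (1.99 and 11.7 FPKM) and Cdh11 (6.82 and 30.8 FPKM), with differences of 2.18, 2.09 and 2.02. The part of the forebrain RNA in these differences was not tested.

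The sign at 4 months matched that at 1 month in 44 of 90 members, 48.9%, against 57.5% of all genes. It matched in 14 of 18 classical, 8 of 11 non-clustered and 17 of 22 gamma genes, but in 2 of 15 alpha and 1 of 21 beta genes. All 21 beta genes were higher in the library labelled KO at 4 months, with a median difference of 0.61, after a median of -0.25 at 1 month. Their level in the 4-month WT library was low, with a median deviation of -0.43 from WT at 1 month. Pcdhgc5, a C-type gamma gene, parted from its cluster, with 8.46 FPKM in WT and 34.3 FPKM in KO at 4 months, against 3.43 to 5.89 FPKM at 1 month. It held 18.9% of the summed gamma FPKM in the library labelled KO at 4 months and 2.44% to 3.25% in the other 7 libraries.

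**Figure D5:**
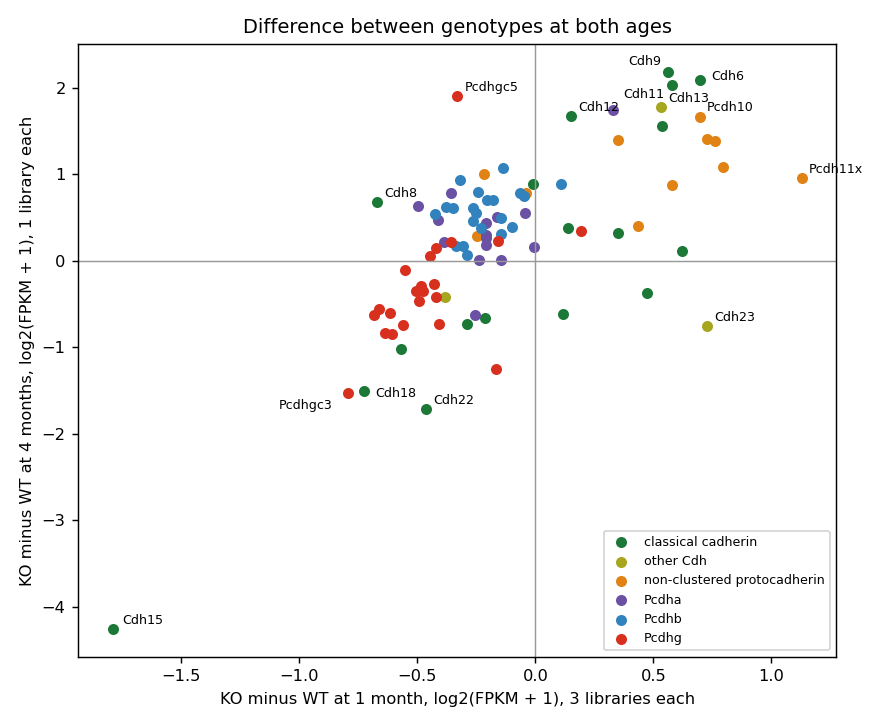
KO minus WT in log2(FPKM + 1) at 1 month (mean of 3 libraries each, horizontal axis) and at 4 months (1 library each, vertical axis), with 1 point per member coloured by class. Beta and alpha genes lie mostly left of 0 at 1 month and above 0 at 4 months, and Cdh15 lies far below at -1.79 and -4.26.

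Whether the genotype difference itself changed with age was tested as an interaction over all 8 libraries, with the lone 4-month libraries taken to vary like those at 1 month, since no spread can be had at 4 months. It passed an adjusted limma p of 0.05 in 11 members, 12.2%, against 10.2% of all genes. The difference was more positive at 4 months in 9 of them, against 5.41% of all genes, and more negative in 2, against 4.78%. Among them were 5 classical cadherins (Cdh2, Cdh6, Cdh11, Cdh12 and Cdh22), 1 alpha gene, 3 beta genes and the C-type gamma genes Pcdhgc4 and Pcdhgc5. The count fell to 0 without WT replicate 1 or WT replicate 2, and was 1 without KO replicate 2 and 2 without KO replicate 1, but 21 without the library labelled KO replicate 3.

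Age itself, with genotype as an additive term, gave 0 members past an adjusted limma p of 0.05, against 1.32% of all genes. At an unadjusted limma p under 0.05 there were 4 members, all higher at 4 months, which is 4.44% against 23% of all genes in either direction and 7.79% higher. They were Pcdh1 and Pcdhgc5, with log2 changes of 1.18 and 1.68, and Pcdhac2 and Pcdhga12, with 0.47 and 0.66. Pcdh1 had 39.2 FPKM in WT at 4 months and 79.2 FPKM in KO at 4 months, against 18.9 to 28.4 FPKM at 1 month. Between the WT libraries alone, 3 at 1 month and 1 at 4 months, the change was 0.57 for Pcdh1 and 0.56 for Pcdhgc5, so the library labelled KO at 4 months carried much of both. With that library left out, 1 library remained at 4 months, so the change with age rests on WT libraries alone. Pcdhgc4 was then higher by 0.78 and Pcdhb20 had a log2 change of -0.73, the same values as between the WT libraries only.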

How the data were processed

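RNA of 8 libraries was analysed. The authors deposited 1 table of FPKM, with a column per library. The submitters' processing notes name Bowtie 1.1.2, TopHat2 2.1.0, Cuffdiff and the build mm9, while annotation, strand setting, low-value filter and further scaling are not given in sources used here. Without strand, antisense or overlapping genes cannot be told apart. A stray row of older column names (1) was removed. FPKM values hold no counts, so the depth is unknown and no counting interval is given. Of the 37 samples, 29 of chromatin were not used.

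Tests were run on log2(FPKM + 1), a pseudocount of 1, with limma 3.58.1 in R 4.3.3, over 16474 genes whose 8 libraries averaged 0.5 FPKM or more. On that scale the change of a low gene comes out too small. P-values were adjusted by Benjamini-Hochberg over all of them, with a threshold of 0.05. Genotype was compared at 1 month in 6 libraries, and age and the interaction in all 8. The script was tested on simulated data.

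The members and lists were chosen with earlier results of these data known. Genes named are the 3 most abundant per class, the 8 largest differences in each direction at 1 month among members whose groups did not overlap and had at least 1 FPKM, the 4 largest in each direction at 4 months, every member past a threshold, those next to the level that defines members, and others needed to account for a class. Current symbols and promoters came from RefSeq tables of GRCm38.p6, a build other than mm9, in which all 90 members matched, 2 through an older symbol.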

Additional observations from a re-analysis of the deposited data

Results flagged for a closer look

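The interaction of genotype and age passed an adjusted limma p of 0.05 in 11 members. Each rests on 1 library per genotype at 4 months, with the spread taken from 1 month, and the count was 0 without WT replicate 1 or WT replicate 2, so a difference between the ages is not established for these genes. The library labelled KO at 4 months held forebrain markers at 121 FPKM in sum and Gabra6 at 0.118 FPKM, and the part of this in the results was not tested. The change in the difference, 4 months minus 1 month on the log2 scale, was 2.23 for Pcdhgc5, 1.52 for Cdh12, 1.45 for Cdh11 and 1.39 for Cdh6. It was 1.14 for Pcdha10, 1.04 for Pcdhb9, 1.00 for Pcdhb20, 0.96 for Pcdhb11 and 0.90 for Cdh2. It was negative for Cdh22 (-1.25) and Pcdhgc4 (-1.09). The smallest adjusted limma p among them was 0.0163 for Pcdhgc5 and the largest 0.0482 for Pcdhb11. Of the genes with a more positive difference, Cdh6, Cdh11 and Cdh12 were already higher in KO at 1 month (0.70, 0.58 and 0.15), while Pcdha10, Pcdhb9, Pcdhb11, Pcdhb20 and Pcdhgc5 were lower there (-0.36, -0.25, -0.35, -0.38 and -0.33). Cdh22 and Pcdhgc4 were lower in KO at 1 month (-0.46 and -0.17) and lower by more at 4 months (-1.72 and -1.26).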

How the results depend on the processing

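The count of members past an adjusted limma p of 0.05 at 1 month was 0 and ran from 0 to 42 when each library was left out in turn; 42 was without the library labelled KO replicate 3. Array weights gave 59, with 50.8% of all genes called. With all 6 libraries, 11 members passed 0.10, and this count was 0 when any of the WT libraries or KO replicates 1 or 2 was left out. It rose without KO replicate 3, where 46.7% of members passed 0.05 against 30.9% of all genes. For age the count of 0 ran from 0 to 10, with 10 without the WT library at 4 months and 2 without KO at 4 months. For the interaction the count of 11 ran from 0 to 21, and 21 was 23.3% of members against 20.7% of all genes. At 4 months the count of 20 became 31 with a pseudocount of 0.1, or 34.4% against 28% of all genes. Chosen after seeing the data, KO replicate 3 as the only KO library gave 0 members, and leaving out both replicate 3 libraries gave 57, or 63.3% against 43% of all genes. The median of each class at 1 month kept its sign in 16 settings, apart from those chosen after seeing the data. It ran from -0.76 to -0.34 for gamma, -0.31 to -0.03 for beta and -0.30 to -0.09 for alpha. For classical genes it ran from 0.06 to 0.21 and for non-clustered genes from 0.44 to 0.88. The ends at -0.03, -0.09 and 0.21 came from 1 of these settings, all 8 libraries with age as a term, which takes in the 4-month libraries. The alpha median was also -0.09 without WT replicate 3. With KO replicate 3 as the only KO library the gamma median was -0.01. Shifting libraries to 1 median moved the median of all genes for age from -0.10 to 0.01. The cause of these differences was not tested. Same-numbered libraries deviated together with correlations of 0.15, 0.03 and 0.04. KO replicates 1 and 3 correlated most with their own number, while KO replicate 2 correlated most with WT replicate 3, at 0.07. With 3 libraries per group these values cannot decide whether the numbers pair the libraries. A fit with the replicate block called 0 members at 0.05 and 7 at 0.10.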
